A study of Homo sapiens with 12 samples.

Results

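The KDM2B binding sites of REH, a human line of acute lymphoblastic leukaemia of the B-cell lineage (B-ALL), were taken as every peak of the REH list of a 7-line chromatin immunoprecipitation and sequencing (ChIP-seq) study. They were 8146 of the 79473 peaks listed for all 7 lines. The other KDM2B lists came from SUP-B15 (B-ALL with the BCR-ABL1 fusion), K562 (chronic myeloid leukaemia in blast crisis), and DND41, HPB-ALL, JURKAT and SIL-ALL (T-cell acute lymphoblastic leukaemia, T-ALL). The lineages are given as background on these lines, since the labels do not name them. All lines were kept in IMDM medium with 10% serum, no treatment is given in the labels, and the chromatin was precipitated with 1 KDM2B antibody from Millipore. Each line had 1 KDM2B library and 1 list, so a difference between REH and another line cannot be told apart from a difference between 2 libraries. The series also lists input libraries of 5 lines, REH among them, whose signal was not used here, and how many reads lie behind a list is unknown.

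KDM2B is a JmjC-domain demethylase of histone H3 that binds unmethylated CpG-rich DNA through a CXXC zinc finger. It brings a variant Polycomb repressive complex, PRC1.1, to CpG islands, where the complex ubiquitinates histone H2A. PRC1.1 also contains BCOR or BCORL1, PCGF1, RING1 or RNF2, RYBP and USP7. REH carries the ETV6-RUNX1 fusion, which joins a transcription factor gene in band 12p13.2 to one in 21q22.12 and arises in childhood B-ALL. A peak list holds no expression values, so the identity of the cells could not be checked against marker genes. The lists are in hg19 coordinates, no gene annotation of that build was used, and peaks were therefore placed in chromosome bands. A gene named with a band is background on that band, and whether a peak overlaps it was not determined.

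REH had the smallest covered length and the lowest median score of the 7 lists. Its peaks had a median width of 213 bp (quartiles 168 and 291 bp), equal to that of DND41 and below the 350 bp of SUP-B15 and the 552 bp of K562. Peaks of 1000 bp or wider made up 0.724% of the REH list, against 5.403% in SUP-B15 and 1.92 to 18.8% over the 6 other lists. The REH peaks covered 2.10 Mb, against 3.38 Mb in SUP-B15 and up to 4.85 Mb in SIL-ALL. The score of a peak is the authors' own value, with no unit stated. Its median was 67.4 in REH, against 75.6 in SUP-B15 and up to 139 in SIL-ALL, although lists began at different lowest scores, 50.01 in REH and up to 80.03 in SIL-ALL. Scores were therefore compared only as percentiles within a list, where 100 is the highest-scored peak. Joining peaks of a list within 500 bp of each other left 6014 in REH, a loss of 26.2%, against 29.0% in SUP-B15 and 23.5 to 44.6% over the 6 other lists.

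REH sites ranged from a large set found in no other list to a small, high-scored set found in all of them, with most peaks in between. In all, 2378 REH peaks (29.2%, Wilson 95% interval 28.2 to 30.2%) were overlapped by no other list by at least 1 bp. That share was the highest of the 7 lists, against 20.2% in SUP-B15 and 18.2 to 25.5% over the 6 others. REH also came first in the upper 50% of every list by score (26.07%, against 19.2% in SUP-B15 and at most 25.01% in another list), after joining within 500 bp (32.7%, against 20.2% in SUP-B15 and at most 23.8%) and on autosomes. It did not with equal lists of the 5942 top-scored peaks (31.08% in REH, 24.0% in SUP-B15 and 33.6% in K562), nor above a common score floor (18.7% in REH and 15.4% in SUP-B15, with REH in place 4 of 7). All 6 other lists overlapped 575 REH peaks (7.06%, interval 6.52 to 7.64%). Between these ends, 1371 peaks were overlapped by 1 other list, 1071 by 2, 987 by 3, 921 by 4 and 843 by 5. Wilson intervals here cover counting error only, and peaks of 1 list are not replicates of a condition. With 1 line set against 6, an exact permutation test cannot give a p below 0.143, so no test was made.

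Shared REH peaks were wider and ranked higher than those found in REH alone. Peaks in no other list had a median width of 177 bp and a median percentile of 32.9. Those in all 6 other lists had a median width of 285 bp and a median percentile of 76.5. In the lowest score decile of the REH list 51.0% of peaks were in no other list (interval 47.6 to 54.4%), 18.3% were overlapped by SUP-B15 and 2.95% by all 6. In the highest decile 6.99% were in no other list (interval 5.44 to 8.95%), 71.7% were overlapped by SUP-B15 and 19.3% by all 6. Within a score decile the peaks in REH alone were still the narrower ones. Their median width was 143 bp against 155 bp for shared peaks in the lowest decile, and 459 bp against 502 bp in the highest. Scores were not matched within a decile, and the highest spanned 137.66 to 2752. In the highest decile 57 peaks were found in REH alone.

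**Figure D1:**
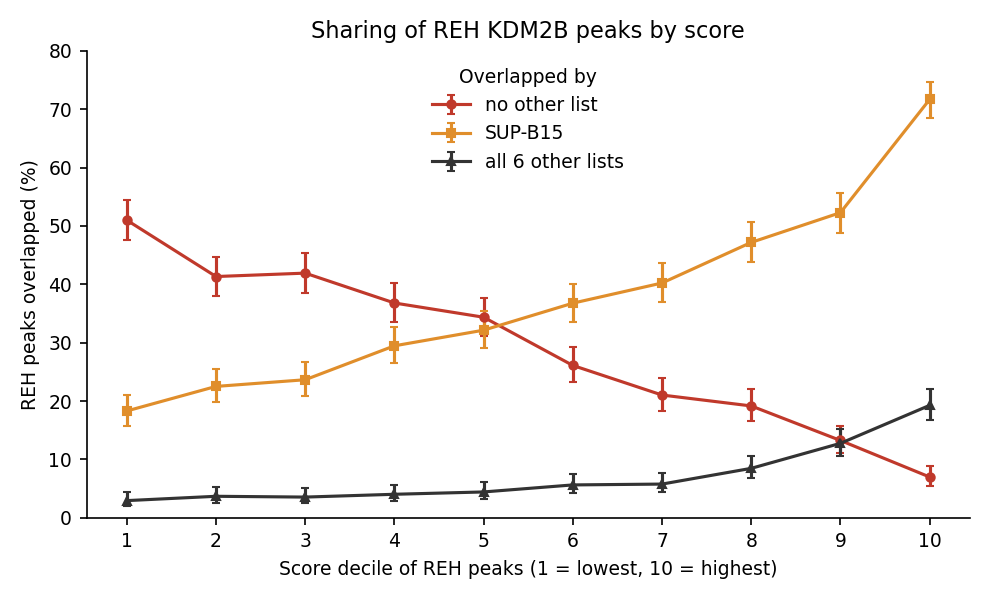
REH KDM2B peaks by score decile (x axis, 1 lowest to 10 highest) and the percentage of each decile overlapped by no other list, by SUP-B15 or by all 6 other lists (y axis); bars are Wilson 95% intervals. The share in no other list is 51.0% in decile 1 and 6.99% in decile 10, while the share overlapped by SUP-B15 is 18.3% and 71.7%.

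The same sharing was counted on merged regions, in which overlapping peaks of all lists form 1 region and a line is present with any peak. REH was present in 6458 of 29071 regions (22.2%), and in 4080 of the 26693 regions of at least 1 other line (15.3%). SUP-B15 was present in 16.2% of the 27552 regions of at least 1 line other than itself. REH was present in 5.54% of regions held by 1 other line, 13.4% with 2, 22.8% with 3, 32.8% with 4, 50% with 5 and 65.9% with 6. Every one of the 2378 peaks in no other list formed a region of its own, and these were 36.8% of the REH regions (interval 35.7 to 38.01%). Over the other lines that share was 25.4% in SUP-B15, 29.2% in K562 and 24.33 to 30.8% in the T-ALL lines. Of the REH-alone regions, 634 (26.7%) had a peak of another line within 500 bp.

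REH was also the line most often missing where all the others were present. Of the 1076 regions held by all 6 other lines, REH was present in 709 (65.9%, interval 63.0 to 68.7%) and absent from 367. Counted the same way for each line against its 6 others, presence was 79.7% for SUP-B15, 68.6% for K562 and 86.9 to 96.9% for the T-ALL lines. The interval of REH overlapped that of K562 (65.7 to 71.3%). With equal lists of the 5942 top-scored peaks of each line, REH stood at 65.8% (interval 61.9 to 69.4%), SUP-B15 at 82.2% and K562 at 76.4%. Of the 367 regions without REH, 19 (5.18%) had a REH peak within 500 bp.

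SUP-B15 was the line closest to REH with equal lists, but not on the plain overlap, with 50% reciprocal overlap or above a common score floor. As deposited, 37.4% of REH peaks were overlapped by SUP-B15 (interval 36.4 to 38.5%), 31.2% by K562 and, among the T-ALL lists, 39.2% by DND41, 38.8% by JURKAT, 37.7% by SIL-ALL and 34.5% by HPB-ALL. The 4 T-ALL lists are longer, and with equal lists SUP-B15 came first with 39.6% (interval 38.4 to 40.8%). K562 then followed with 35.3%, and the T-ALL lines had 29.2 to 31.4%. Equal lists do not set aside peak width, and its part in this order was not tested. As deposited, median widths were 350 bp in SUP-B15, 552 bp in K562 and 213 to 253 bp in the T-ALL lines. With 50% reciprocal overlap of the deposited lists, JURKAT came first (15.3%), SUP-B15 in place 3 (12.3%) and K562 last (5.22%). Of the regions in either REH or SUP-B15, 23.1% were in both, against 16.3 to 18.5% for REH with each of the 5 others. This share does not set aside list length. The regions in either line numbered 10110 for SUP-B15, 9830 for K562 and 13680 to 15365 for the T-ALL lines.

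The gap was widest for regions that no further line held. Among regions of SUP-B15 that lacked the 5 remaining lines, REH was present in 312 of 1831 (17.04%, interval 15.4 to 18.8%). Over all regions held by 1 other line, SUP-B15 included, REH was present in 5.54%, and over all regions of other lines in 15.3%. For K562 the same share was 6.54% (interval 5.43 to 7.84%), and for the T-ALL lines it was 3.29 to 4.35%. SUP-B15 also moved with REH where T-ALL lines were present. In regions of all 4 T-ALL lines, REH was present in 65.9% when SUP-B15 and K562 were both there, in 46.8% with SUP-B15 alone, in 43.1% with K562 alone and in 25.7% with neither. The intervals with SUP-B15 alone (43.1 to 50.5%) and with K562 alone (38.4 to 47.9%) overlapped, so in that setting SUP-B15 did not stand apart from K562.

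**Figure D2:**
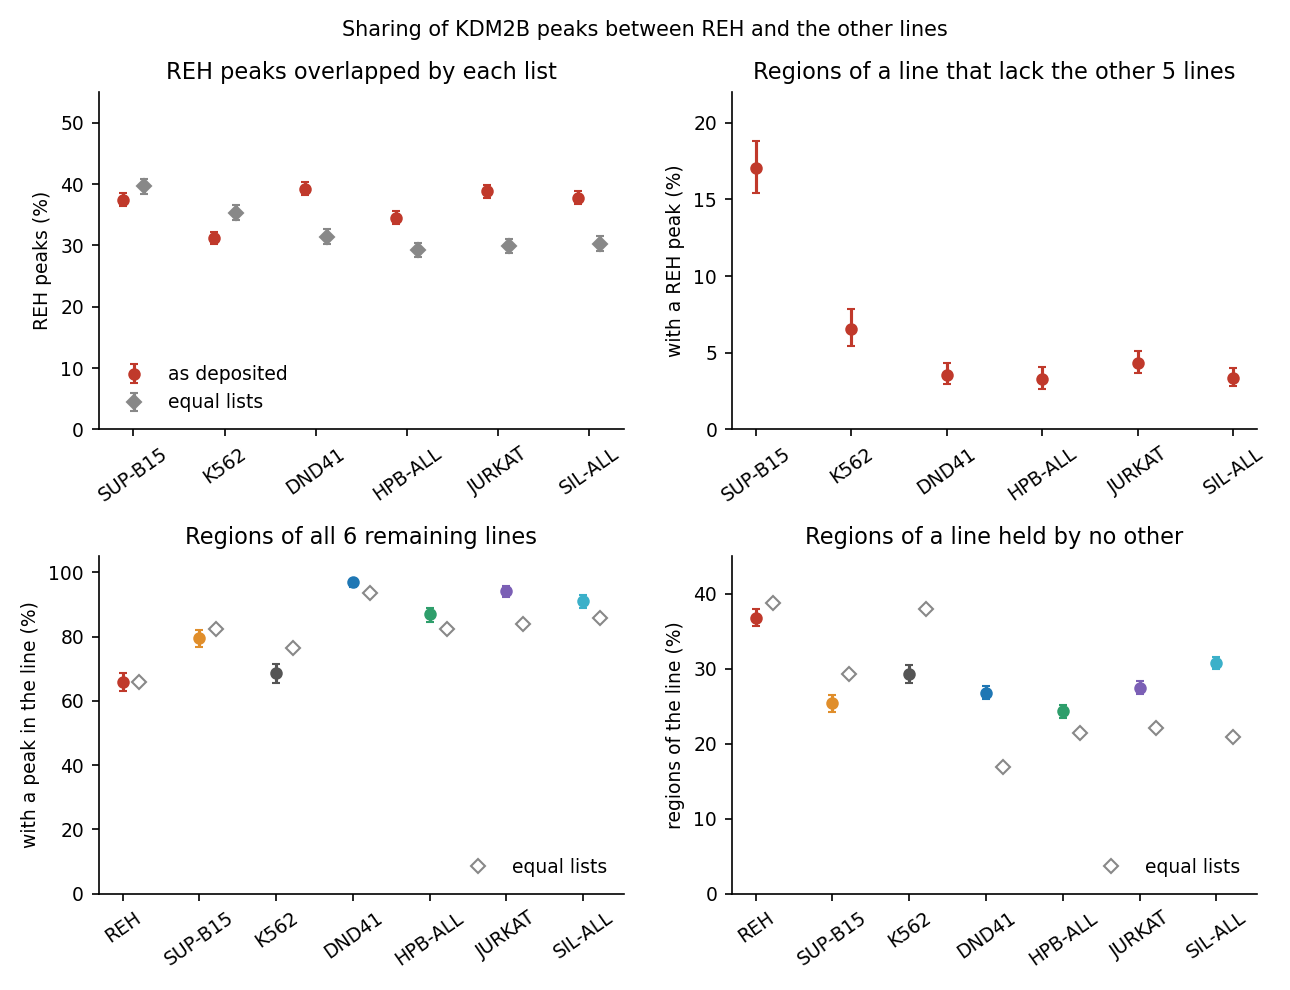
Upper left, REH peaks overlapped by each other list (%), as deposited and with equal lists of 5942 peaks; upper right, regions of a line that lack the 5 lines other than it and REH, with the percentage that hold a REH peak. Lower left, presence of each line in the regions of its 6 others (%); lower right, regions of each line held by no other (%); bars are Wilson 95% intervals and open diamonds equal lists. REH is lowest in the lower left panel (65.9%) and highest in the lower right one (36.8%), and SUP-B15 is highest in the upper right one (17.04%).

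Within shared regions the ranks of REH sites followed those of SUP-B15 more closely than those of other lines, though weakly. Over the 2337 regions of both lines, Spearman's rho of the within-list percentiles was 0.344, given as a description since regions of 1 pair of libraries are not independent replicates. For the other 5 lines it was 0.240 to 0.279. The median percentile was 70.1 in REH and 71.1 in SUP-B15, and REH had the higher percentile in 50.1% of the regions. In the 709 regions of all 7 lines the median percentile was 75.4 in REH (quartiles 49.7 and 90.3), 81.6 in SUP-B15, 74.1 in K562 and 89.1 to 93.0 in the T-ALL lines. Percentiles depend on the length of a list. With equal lists, the 402 common regions had medians of 78.3 in REH, 83.1 in SUP-B15, 77.3 in K562 and 84.0 to 89.4 in the T-ALL lines.

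The strongest REH site was a peak of 3019 bp in 12q22 (chr12:93964281-93967299), which was also the widest peak of the list. This band holds SOCS2, a feedback inhibitor of cytokine signalling. The region had a percentile of 100 in REH, 99.9 in SUP-B15, 94.95 in K562, 99.9 in JURKAT, 99.6 in SIL-ALL, 99.1 in DND41 and 48.0 in HPB-ALL. HPB-ALL was thus the line that ranked it low, and its peaks lay beside the top REH peak without overlapping it. The second, in 16p11.2 (chr16:30669371-30671598), stood at 99.9 or above in all 7 lists. The tenth, in 16p13.3 (chr16:3199874-3200778), stood at 99.9 in REH, 99.6 in SUP-B15 and 98.7 to 99.9 over the other lists.

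Other top-ranked REH sites varied between lines. The third and the eighth lay in 1p36.33. At the third (chr1:2221159-2223213) K562 had no peak, and percentiles were 99.6 in SUP-B15, 39.8 in HPB-ALL and 90.9 to 99.96 in the 3 remaining T-ALL lines. At the eighth (chr1:875848-877818) all 7 lines had a peak, and HPB-ALL was again the lowest, at 20.8. The fifth, in 3q27.2 (chr3:185825234-185827181), the band of the ETS-family factor gene ETV5, ranked at 99.95 in REH, 15.2 in SUP-B15 and 97.0 to 99.97 in K562, DND41, JURKAT and SIL-ALL, and was absent from HPB-ALL. The fourth, in 21p11.2 (chr21:9825455-9827560), was absent from K562 alone and stood at 99.9 or above elsewhere.

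The sixth and the seventh set REH against most of the other lines. The sixth, in 6p21.33 (chr6:30433253-30434721), ranked at 99.94 in REH, 99.97 in K562 and 99.95 in JURKAT and had no peak in SUP-B15, DND41, HPB-ALL or SIL-ALL. The seventh, in 21q22.3 (chr21:45661776-45663841), ranked at 99.9 in REH, 88.0 in SUP-B15, 69.9 in HPB-ALL and 65.0 in JURKAT, and K562, DND41 and SIL-ALL lacked it. Among the 5 widest REH peaks the second (2406 bp, 1q12, chr1:142537332-142539737) was found in REH alone, in a heterochromatic band beside the centromere of chromosome 1. Its percentile was 96.7. No filter for repeated sequence was applied here to this peak or to that in 21p11.2, and input signal was not used.

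The strongest sites found in REH alone formed a run in 17q21.33, the band of COL1A1, which encodes the alpha-1 chain of type I collagen. The ninth REH peak by score (chr17:48263650-48264277, score 926, percentile 99.9) lay there, and so did the second and the fifth of the REH-alone regions, chr17:48263107-48263468 at percentile 99.9 and chr17:48262825-48263098 at 98.6. Joined at gaps of up to 5 kb, 17 REH peaks spanned 15.9 kb (chr17:48261467-48277384), with widths of 118 to 628 bp and a median percentile of 80.6. None of the 17 was overlapped by another list. Within 10 kb of the run the other 6 lists held 1 peak, a JURKAT peak 70 bp from its end at percentile 2.21, and the nearest peak of each of the other 5 lines was 31.9 to 33.6 kb away.

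A second group of REH sites lay in 7q21.3, the band of COL1A2, which encodes the other chain of type I collagen. It comprised 8 REH peaks over 21.6 kb (chr7:94038954-94060565), again with no peak of another list. Of these, 5 formed a run by the same joining, within 3.63 kb and with a median percentile of 96.3, and the other 3 lay apart from it. The nearest peak of any other line was 78.5 kb away, in SIL-ALL. Both groups and their gene bands were singled out after their values were seen, and no test was made on them. Whether any of their peaks overlaps a collagen gene was not determined. Runs of at least 5 peaks of 1 line alone, making up 80% or more of the run, numbered 7 in REH, 5 in SUP-B15, 12 in K562 and 0 to 9 in the T-ALL lines, so runs as such were not particular to REH. The longest such runs held 17 peaks in REH, 8 in SUP-B15, 15 in K562 and up to 12 in the T-ALL lines. Among the REH runs, that of 21q22.3 held 7 peaks, 6 of them in REH alone, more than the 5 of 7q21.3. Those of 22q13.31, 20q13.33, 7q11.23 and 5q23.1 held 5 each, as many as 7q21.3.

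**Figure D3:**
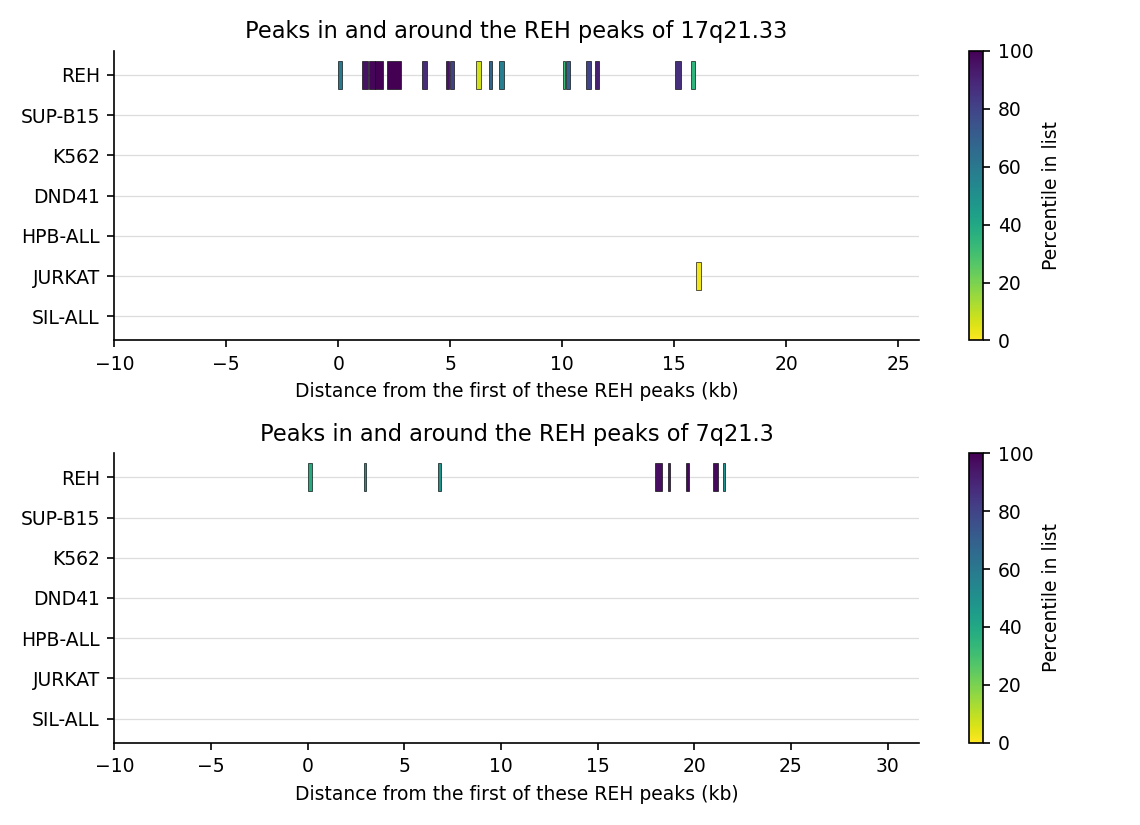
Peaks of the 7 lines in and within 10 kb of the REH peaks described in 17q21.33 (top) and 7q21.3 (bottom); the x axis is the distance from the first of these REH peaks in kb, bars are peaks drawn to scale in width, and colour is the percentile within the list. All 17 and all 8 peaks are REH peaks, and the 1 peak of another line is the JURKAT peak at percentile 2.21.

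The remaining REH-alone regions by score were a peak of 1148 bp in 1p34.1 (chr1:44871096-44872243, percentile 99.7) and one in 11q13.5 (chr11:75921485-75922157, percentile 99.2). The 1p34.1 peak had 3 neighbours, all of them in REH alone too. The 11q13.5 peak touched on REH peaks that were overlapped by 2 other lists, so it was the edge of a shared site. Most REH-alone regions were far weaker: 705 of the 2378 lay in the upper 50% of the REH list. By band, REH-alone regions were most frequent in 19p13.3 (64 of 180 REH peaks), 21q22.3 (62 of 144), 16p13.3 (49 of 135), 19p13.2 (32 of 76) and 19q13.2 (30 of 54). Over the whole list 2378 of 8146 REH peaks (29.2%) were in REH alone, and the share was higher in each of these bands. The bands were picked by their counts of REH-alone regions, which favours a high share, and this was not tested. The bands with most REH peaks of any kind were 19p13.3 (180), 21q22.3 (144), 17q25.3 (142), 16p13.3 (135) and 8q24.3 (95). Of these, 17q25.3 and 8q24.3 were not among the leading bands for REH-alone regions.

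The regions of REH and SUP-B15 alone included sites near the top of both lists. The first, of 1604 bp in 17p11.2 (chr17:17626682-17628285), ranked at 99.4 in REH and 99.3 in SUP-B15. A region of 2723 bp in 6p25.3 (chr6:391584-394306) held 6 REH peaks and 2 SUP-B15 peaks, at percentile 98.1 in REH and percentile 99.4 in SUP-B15. The band 6p25.3 holds IRF4, a transcription factor gene of B-cell development. It had 8 REH peaks in all, 0.0982% of the list, the highest share of the 7 lines, against 0.0531% in SUP-B15 and 0.0401 to 0.0841% over the 6 others. The interval of the REH share (0.0498 to 0.194%) covered the values of all lines but DND41 and JURKAT.

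The next regions of REH and SUP-B15 alone lay in 7q32.1, 21q22.3, 19q13.33 and 14q32.2, a further one of 17p11.2 and one in 22q13.2. The 8 best of these regions ranked at 96.0 to 99.5 in REH and at 94.9 to 99.4 in SUP-B15. In 21q22.3 (chr21:44818331-44820241) REH ranked higher, at 99.5 against 95.7 in SUP-B15, whereas in 19q13.33 (chr19:50935090-50936857) the percentile was 96.0 in REH and 98.96 in SUP-B15. By band, these regions were most frequent in 17q25.3 (14), 21q22.3 (12) and 19p13.3 (8), which were also among the bands with most REH peaks of any kind.

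The strongest regions that REH lacked were well placed in every other list. In 1p34.2 (chr1:43423031-43424842) REH had no peak, and the percentile was 95.4 in SUP-B15, 95.6 in K562 and 97.5 to 99.1 in the T-ALL lines. In 6q24.2 (chr6:143265382-143269304) REH had no peak, against 91.2 in SUP-B15, 99.9 in K562 and 91.3 to 99.7 in the T-ALL lines. The third lay in 1q25.3 (chr1:182583759-182585889), the band of the PRC1.1 subunit gene RNF2, at 98.0 in SUP-B15 and 83.3 to 99.9 over the other 5. The fourth lay in 12p11.23 (chr12:26985018-26986290), at 90.03 in SUP-B15 and 93.3 to 98.6 over the other 5. The fifth lay in 6p22.3 (chr6:16759446-16763109), at 89.3 in SUP-B15 and 93.8 to 99.5 over the other 5.

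Regions of all 7 lines also held sites where the rank in REH departed from the rest. The widest gap was in 17q25.3 (chr17:79988177-79989453), at percentile 2.76 in REH, 94.8 in SUP-B15, 64.5 in K562 and 76.0 to 98.6 in the T-ALL lines. Further low ranks in REH were found in 16q24.1 (chr16:85586739-85589231) at 0.712, 13q14.11 (chr13:42614032-42615918) at 7.22, 5q21.1 (chr5:98263508-98265579) at 1.504 and 8q24.3 (chr8:145691198-145692727) at 8.81. These percentiles are near the foot of the REH list, so sites such as these were only just listed. The reverse was smaller in size. REH exceeded the median of the other lines most in 3p13 (chr3:72936843-72938249), by 47.1 points. The percentile there was 77.3 in REH, 14.8 in SUP-B15 and 19.6 to 93.0 over the other 5, with JURKAT (81.4) and SIL-ALL (93.0) above REH. The next gaps to the median, of 37.0 and 36.6 points, were both in 7q36.1 (chr7:150929162-150930767 and chr7:149321437-149321943), and those in 8p21.1 and 11q13.1 were 36.4 and 29.9 points. In 8p21.1 HPB-ALL (98.1) and SIL-ALL (95.9) again ranked above REH (86.8).

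**Figure D4:**
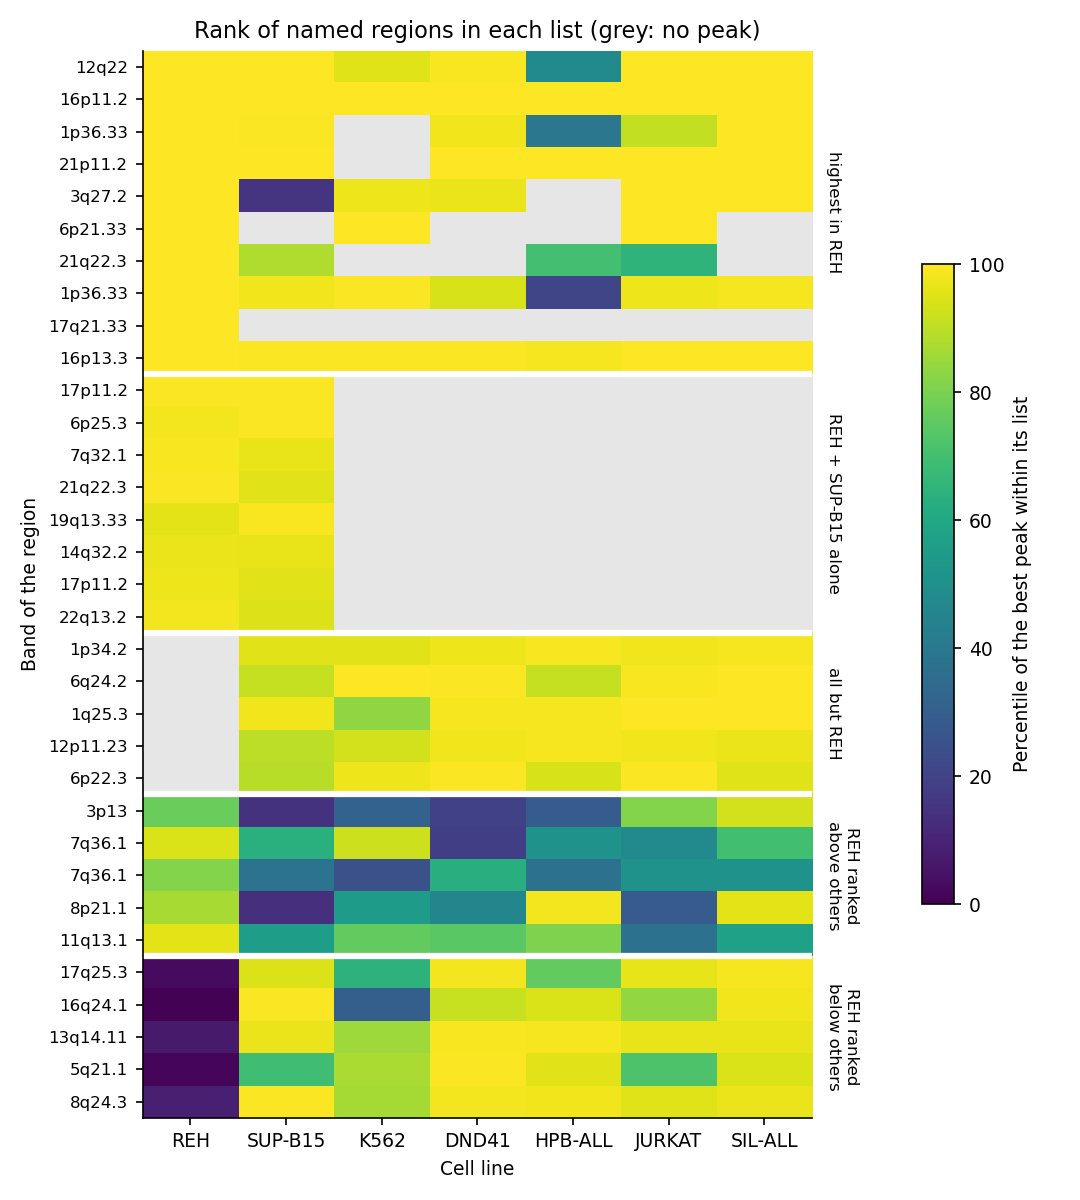
Within-list percentile of the best peak (colour, 0 to 100; grey where a list has no peak) of named regions (y axis, by band) in the 7 lines (x axis). From top to bottom: the 10 highest-scored REH sites, 8 regions of REH and SUP-B15 alone, 5 regions of all lines but REH, and the regions of all 7 lines with the 5 highest and 5 lowest REH ranks relative to the median of the others. In the last block REH lies at 0.712 to 8.81.

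REH peaks were unevenly placed on 3 chromosome arms. On 21q it had 212 peaks, 2.60% of the list (interval 2.28 to 2.97%), against 1.21 to 1.75% over the 6 other lists. Of 44 arms compared, this was the only one where REH was highest or lowest with an interval apart from the next line. Most of these peaks lay in the distal part: from 21q22.13 to 21q22.3 REH had 175 peaks (2.15%, interval 1.86 to 2.49%), against 1.18% in SUP-B15 and 0.762 to 1.28% over the 6 others. Of the 175, 144 lay in 21q22.3, the last band of the arm. From 21q11.1 to 21q22.11 REH had 25 peaks (0.307%), against 0.226% in SUP-B15 and 0.226 to 0.425% over the 6 others, in the middle of their range. REH peaks also fell in 31.9% of the distal regions held by other lines (79 of 248, interval 26.4 to 37.9%), against 15.3% over all regions of other lines. In 21q22.12, outside the distal part, the share was 36.8% (7 of 19, interval 19.1 to 59.0%). Over all chromosomes REH also had the highest share of peaks within 5 Mb of a chromosome end. It was 24.7%, against 23.7% in SUP-B15 and 15.3 to 23.7% over the 6 others, and its part in the 21q counts was not tested.

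On 3p and 12p the REH list had gaps. From 3p22.2 to 3p14.3 REH had 9 peaks (0.110%, interval 0.0581 to 0.210%), against 1.02% in SUP-B15 and 0.266 to 1.47% over the 6 others. It was present in 8 of the 335 regions that other lines held there (2.39%, interval 1.21 to 4.64%). HPB-ALL was also low in that segment and lower than REH over 3p as a whole (0.470% against 1.01% in REH), so low counts on 3p were not particular to REH. From 3p14.2 to 3p11.1 REH had 20 peaks (0.246%), against 0.372% in SUP-B15 and 0.0392 to 0.372% over the 6 others. From 12p13.2 to 12p11.1 REH had 13 peaks (0.160%, interval 0.0933 to 0.273%), against 0.637% in SUP-B15 and 0.370 to 0.681% over the 6 others. Beyond 12p13.2, towards the end of the arm, REH had 63 peaks (0.773%), against 0.558% in SUP-B15 and 0.202 to 0.696% over the 6 others. These segments were drawn after the band counts were seen. Copy number was not measured here, and its part in these counts was not tested.

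**Figure D5:**
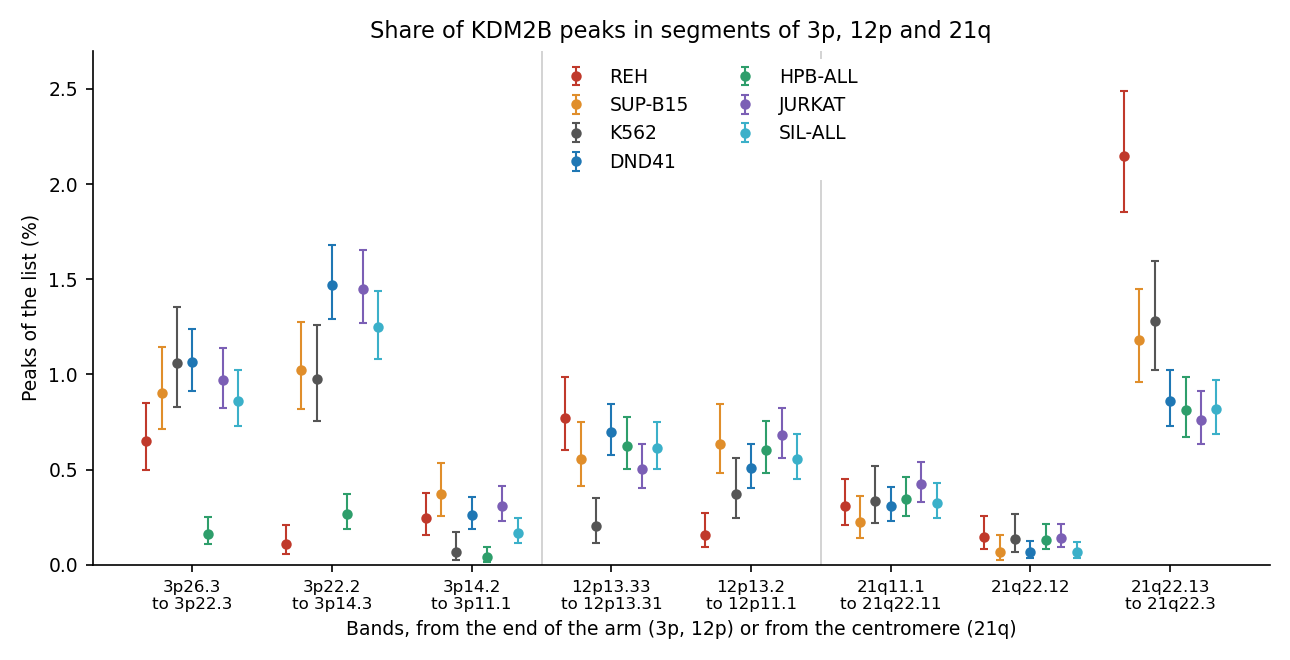
Percentage of the peaks of each list (y axis) in 8 segments of 3p, 12p and 21q (x axis, by band), with 1 point per line and Wilson 95% intervals. REH is at 0.110% in 3p22.2 to 3p14.3, 0.160% in 12p13.2 to 12p11.1 and 2.15% in 21q22.13 to 21q22.3, and lies within or near the range of the other lines elsewhere.

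The bands of the fusion partners held few REH peaks. In 12p13.2, the band of ETV6, REH had 3 peaks (0.0368%, interval 0.0125 to 0.108%). The share was 0.106% in SUP-B15, 0 in K562 and 0.0980 to 0.155% in the T-ALL lines. The REH interval reached the values of SUP-B15 and SIL-ALL (0.0980%). In 21q22.12, the band of RUNX1, REH had 12 peaks (0.147%, interval 0.0843 to 0.257%), the highest share, but K562, HPB-ALL and JURKAT had 0.133 to 0.142%. SUP-B15 had 0.0664% there. Neither count can be assigned to a gene.

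Among 8 bands of B-lineage genes REH had the highest share of the 7 lines in 2 and the lowest in 1. Over 44 chromosome arms it was highest on 8 and lowest on 5, so these counts do not set the bands apart. The highest were 6p25.3, given above, and 19p13.3, the band of TCF3, a factor that opens the B-cell programme, with 2.21% in REH, 1.89% in SUP-B15 and 1.04 to 1.82% over the other 5. The value of SUP-B15 lay just below the interval of REH (1.91 to 2.55%). REH was also highest over the whole arm 19p, at 4.21%, and 6 of its 8 peaks in 6p25.3 lay in a single merged region. The lowest was 5q33.3, the band of EBF1, with 6 peaks (0.0737%) in REH, against 0.0796% in SUP-B15. In the band of PAX5, 9p13.2, REH had 14 peaks (0.172%), against 0.119% in SUP-B15 and 0.0876 to 0.196% over the 6 others. Among 4 bands of T-lineage genes REH was neither highest nor lowest in any. In 10p14, the band of GATA3, it had 6 peaks (0.0737%), against 0.0531% in SUP-B15, 0.0841% in K562 and 0.147 to 0.310% in the T-ALL lines. In 5q31.1, the band of TCF7, REH (0.307%) lay above SUP-B15 (0.226%) and DND41 (0.274%), within the T-ALL range of 0.274 to 0.392%. In 11q23.3, the band of CD3 genes, REH had 0.319%, against 0.401 to 0.501% in the T-ALL lines. In 1p13.1, the band of CD2, REH had 0.0246%, against 0.0669 to 0.0862% in the T-ALL lines and 0.135% in K562, the highest. Bands of this kind hold many genes, and they describe position only.

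Of 8 bands of PRC1.1 genes REH was highest in none and lowest in 2, Xp11.4 and 1q25.3. Both lie on arms where REH was the lowest of the 7 lists as a whole, Xp (0.0982%) and 1q (3.62%). Over all 44 arms REH was lowest on 5 and highest on 8. Xp11.4, the band of BCOR, had 5 REH peaks (0.0614%), against 0.186% in SUP-B15 and 0.0741 to 0.248% over the 6 others. The first was at chrX:39957083-39957247 in a region that all 6 other lists overlapped, 21.297 kb upstream of the nearest of 3 BCOR exons held by a partial hg19 exon table. Its percentile in REH was 51.6. In 12q24.31, the band of KDM2B itself, REH had 69 peaks (0.847%), against 0.982% in SUP-B15 and 0.572 to 0.982% over the 6 others.

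Chromosome X, the one chromosome for which an hg19 table of CpG islands was at hand, held few REH peaks. REH had 18 (0.221%, interval 0.140 to 0.349%), the lowest share of the 7 lists, against 0.319% in SUP-B15 and up to 0.797% in SIL-ALL. Of these, 13 (72.2%, interval 49.1 to 87.5%) overlapped a CpG island, while islands make up 0.472% of the chromosome. The share was 83.3% in SUP-B15, 97.2% in K562 and 65.6 to 88.4% in the T-ALL lines, and the interval of REH reached all of these but those of K562 and HPB-ALL. By score, the 5 highest REH peaks in an X island were in Xq28 (percentile 71.0), Xp11.4 (51.6), Xq26.1 (48.8), Xp21.3 (47.1) and Xq26.3 (44.6), so none was near the top of the list. No base sequence is shown, since no hg19 genome was used.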

How the data were processed

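KDM2B ChIP-seq was made in 7 leukaemia cell lines, and 1 peak list per line was analysed. The submitters' processing notes name FastQC 0.10.1, Bowtie 1.1.1 and the genome build hg19. Peaks carry names in the style of MACS, and neither a version nor a control or cut-off for the caller is given in the sources used here. The score is the authors' value for each peak, as deposited, with no unit stated. Depth is unknown.

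Peaks were set against each other by an overlap of at least 1 bp, and overlapping peaks of all lists were merged into regions. Percentiles are ranks within a list, and a region takes the best of its peaks. Bands are those of the hg19 table in circlize 0.4.16, by midpoint; CpG islands and BCOR exons are hg19 tables shipped with pyranges 0.1.4. Positions are counted from 1. Gene symbols of bands were checked only for their chromosome, in a GRCh38 table whose coordinates were not used. Counts were checked on simulated lists with planted sharing. Python 3.11.15, numpy 2.4.6, pandas 2.3.3 and matplotlib 3.10.9 were used.

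Alternatives were 50% reciprocal overlap, the midpoint of the REH peak inside the other peak, equal lists of 5942 peaks, peaks at or above the median of each list, a common score floor, joining within 500 bp, autosomes alone, covered bases, and each other line left out. Promoter shares and base content were not computed, as no hg19 annotation was used. Named regions followed a rule: the 10 highest-scored and 5 widest REH peaks, the best regions of REH alone (5), of REH and SUP-B15 alone (8) and of all but REH (5), the 5 highest and 5 lowest REH ranks, leading bands, 23 bands of lineage and PRC1.1 genes, and the 5 best X island peaks. The members, bands and rules were chosen with earlier results of these data known. The runs of peaks and the segments of 3p, 12p and 21q were chosen after their values were seen.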

Additional observations from a re-analysis of the deposited data

Results flagged for a closer look

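Dixon's ratio was computed for 67 values per line to see where REH, or SUP-B15 among the 6 partners of REH, stood far from the rest. It passed the 95% critical value for 6 of them, and several of these are computed from the same regions. Chance marks about 1 in 20 groups, counting any line that stands apart.

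REH stood apart in its share of peaks on 21q, at 2.60%, next to 1.75% in K562 and 1.21 to 1.47% over the other lines. The share from 21q22.13 to 21q22.3, a segment of the same arm, was 2.15%, next to 1.28% in K562 and 0.762 to 1.18% over the other lines. That segment was drawn after the band counts were seen, so its ratio adds no support to that of the arm. These counts hold for 1 library, and copy number was not measured.

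SUP-B15 stood apart among the partners of REH in 4 values. REH was present in 17.04% of SUP-B15 regions that lacked the remaining lines, against 3.29 to 6.54% for the 5 other partners. SUP-B15 was present in 11.6% of REH regions that lacked the remaining lines, against 3.22 to 5.33% for the others. Of the regions in either REH or SUP-B15, 23.1% were in both, against 16.3 to 18.5%, a share that depends on the length of the partner list. Spearman's rho of the percentiles was 0.344 over the 2337 regions of both, against 0.240 to 0.279. No other B-ALL line was among the 6 partners.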

How the results depend on the processing

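The share of REH peaks overlapped by SUP-B15 was 37.4% as deposited, 39.6% with equal lists, 38.8% with the upper 50% of every list by score, 41.9% above a common score floor, 35.1% with peaks joined within 500 bp, 12.3% with 50% reciprocal overlap and 30.8% where the other peak held the midpoint. In the same order the share in no other list was 31.08, 26.07, 18.7, 32.7, 58.2 and 35.1% in place of 29.2%, and the share in all 6 was 5.62, 6.06, 8.45, 8.03, 0.282 and 3.89% in place of 7.06%. With each other line left out these were 30.7 to 34.9% and 7.61 to 10.7%. SUP-B15 was the first of the 6 partners with equal lists, above the median score and with the midpoint, and came in places 3 to 5 otherwise.

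Regions of REH alone numbered 1062 above the median score and 522 above the common floor (2378 as deposited; 2503 to 2840 with a line left out). Those of REH and SUP-B15 alone numbered 181 and 113 (312; 347 to 389). Those of every line but REH numbered 209 with equal lists, 168 above the median score and 242 above the floor (367; 385 to 738, with 609 without SUP-B15 and 738 without K562). REH had the lowest presence in regions of its 6 others in all 5 alternatives compared, at 53.3 to 67.2%. The floor left 2794 REH peaks with a median width of 322 bp, 3.22% of them on 21q and 0.787% on 3p; 21q held 3.84% of the covered bases. REH had the higher percentile in 47.8% of regions shared with SUP-B15 with equal lists and 52.4% after joining (50.1% as deposited), so which line ranked higher changed with the setting.

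From 3p22.2 to 3p14.3 REH was the lowest line as deposited, but with equal lists it had 0.118% and HPB-ALL 0.101%. Of 58 further values, 33 moved beyond the counting interval or 1.5-fold and 25 did not. The X island share stayed within its interval, which rests on 18 peaks. No paired analysis was possible because no line has a second list. Without depth or replicates, a site missing from a list cannot be told from one below its threshold.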
